A study of Mus musculus with 4 samples.

Results

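A set of 10 transcription factor genes that pattern fat depots and their precursor lineages was followed by ATAC-seq, an assay in which the Tn5 transposase cuts accessible DNA, so that open chromatin is listed as peaks. The genes were Tbx15, Shox2, En1, Meis1, Pax3, Pax7, Tbx1, Lhx8, Zic1 and Tcf21, 10 of the 22367 protein-coding genes of the mm9 annotation. Every deposited peak whose summit lay within 50 kb of a transcription start site (TSS) of one of them was taken, which gave 154 of the 239709 peaks in 4 lists. The cells were im-scWAT, stromal vascular cells of subcutaneous white fat from 5-week-old mice that had been immortalised with the large T antigen. They carried either normal Jmjd1a (Jmjd1a +/+, WT) or, on both copies, a histidine-to-tyrosine change that removes the histone H3 lysine 9 demethylase activity of its product (Jmjd1a HY/HY, HY). Each genotype was assayed before differentiation (D0) and after 8 days towards beige adipocytes (D8), with an induction mixture of indomethacin, dexamethasone, isobutylmethylxanthine, rosiglitazone, insulin and thyroid hormone, of which the last 3 were kept on for the final 6 days. Both genotypes were grown and differentiated alike, each from its own immortalised culture. There was 1 library per group, so each difference below is between libraries, no test of a condition was possible, and all intervals are 95% intervals for counting error only.

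Fat cells keep a record of where in the body they arose. Tbx15 (a T-box factor), Shox2 and En1 (homeodomain factors) are developmental regulators of trunk and limb mesenchyme, and Tbx15 and Shox2 are used as markers of subcutaneous depots. Pax3 and Pax7 are paired-box factors of the dermomyotome and of muscle precursors, and Meis1 is a homeodomain cofactor of Hox proteins in many mesenchymal progenitors. Zic1 (a zinc finger factor) and Lhx8 (a LIM homeodomain factor) are used as markers of classical brown fat, Tbx1 (a T-box factor) as a marker of beige cells, and Tcf21 (a basic helix-loop-helix factor) as a marker of visceral white fat precursors.

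The clearest feature was a split between depot genes with an open start and depot genes with none. A promoter was called open in a list when a summit lay from 1000 bp upstream to 100 bp downstream of a TSS. Promoters of Tbx15, Shox2, En1, Pax3 and Meis1 were open in all 4 libraries, 5 of 10 genes, against 44.8% of all protein-coding genes. Lhx8 had a promoter peak in WT D0 alone, a pattern shared by 1.06% of genes. Tbx1, Pax7, Zic1 and Tcf21 had no promoter peak in any list, 4 of 10 genes, against 41.4%. For Zic1 and Tcf21 no list held a peak anywhere within 50 kb, 2 of 10 genes, against 13.3% of genes. Both shares of promoters are near those of all genes, so the split describes these genes and does not set them apart as a group. With every list shortened to its 41228 strongest peaks, Shox2 and Pax3 were no longer open in all 4.

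The first TSS of a gene is, here and below, the most upstream one of its protein-coding transcripts. The sequences upstream of the first TSS of 3 open and 3 closed genes are shown so that their CpG content can be compared. Each is 200 bases of the mm9 reference, 5′ to 3′ on the strand of the gene, with CG dinucleotides in capitals. The stretches are En1 at chr1:122498795-122498994, plus strand, Pax3 at chr1:78193710-78193909, minus strand, Meis1 at chr11:18918962-18919161, minus strand, Zic1 at chr9:91260649-91260848, minus strand, Pax7 at chr4:139389446-139389645, minus strand, and Tcf21 at chr10:22539935-22540134, minus strand.
En1, open: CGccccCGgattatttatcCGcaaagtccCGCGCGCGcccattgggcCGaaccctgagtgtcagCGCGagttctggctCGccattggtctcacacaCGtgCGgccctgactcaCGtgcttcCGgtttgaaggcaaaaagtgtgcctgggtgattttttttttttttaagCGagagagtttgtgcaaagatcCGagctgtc
Pax3, open: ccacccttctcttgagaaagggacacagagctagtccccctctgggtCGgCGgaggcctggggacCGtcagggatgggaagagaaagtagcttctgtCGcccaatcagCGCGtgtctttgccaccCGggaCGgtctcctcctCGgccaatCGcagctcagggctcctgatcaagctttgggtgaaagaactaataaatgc
Meis1, open: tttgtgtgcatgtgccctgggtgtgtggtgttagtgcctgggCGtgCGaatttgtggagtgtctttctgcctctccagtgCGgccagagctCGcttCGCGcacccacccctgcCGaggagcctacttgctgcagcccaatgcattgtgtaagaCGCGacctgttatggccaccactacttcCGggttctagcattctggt
Zic1, closed: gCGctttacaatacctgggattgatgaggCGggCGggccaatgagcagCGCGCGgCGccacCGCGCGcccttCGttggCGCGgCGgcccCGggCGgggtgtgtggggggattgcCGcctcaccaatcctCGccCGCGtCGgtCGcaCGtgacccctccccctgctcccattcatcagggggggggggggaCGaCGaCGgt
Pax7, closed: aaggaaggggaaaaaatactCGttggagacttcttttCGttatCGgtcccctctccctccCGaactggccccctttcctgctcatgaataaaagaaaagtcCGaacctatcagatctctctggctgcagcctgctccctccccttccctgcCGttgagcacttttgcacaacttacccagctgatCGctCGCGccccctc
Tcf21, closed: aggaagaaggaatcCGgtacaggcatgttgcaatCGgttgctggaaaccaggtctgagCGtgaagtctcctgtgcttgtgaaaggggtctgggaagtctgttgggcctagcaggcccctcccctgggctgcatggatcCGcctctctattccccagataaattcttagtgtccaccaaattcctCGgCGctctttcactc
The Zic1 stretch holds 26 CG dinucleotides, more than the 17 of En1 and the 10 each of Pax3 and Meis1. Pax7 holds 9 and Tcf21 holds 6.

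Over 500 bp on each side of the first TSS, 9 of the 10 promoters had a CpG ratio (observed over expected from the C and G content) of at least 0.6, against 10287 of all 22367 protein-coding promoters, and Tcf21 lay at 0.510. The ratios ran from 0.610 in Lhx8 through 0.623 in Tbx1, 0.638 in Pax7 and 0.720 in Zic1 to 0.764 in En1. Among the 10287 promoters with a ratio that high, 9.58% had no peak in any list, while 75.6% were open in all 4. Of the 9 CpG-rich promoters among the 10 genes, 3 (Tbx1, Pax7 and Zic1) had no peak at all. Below that ratio, where Tcf21 lies, 68.5% of promoters had no peak.

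**Figure D1:**
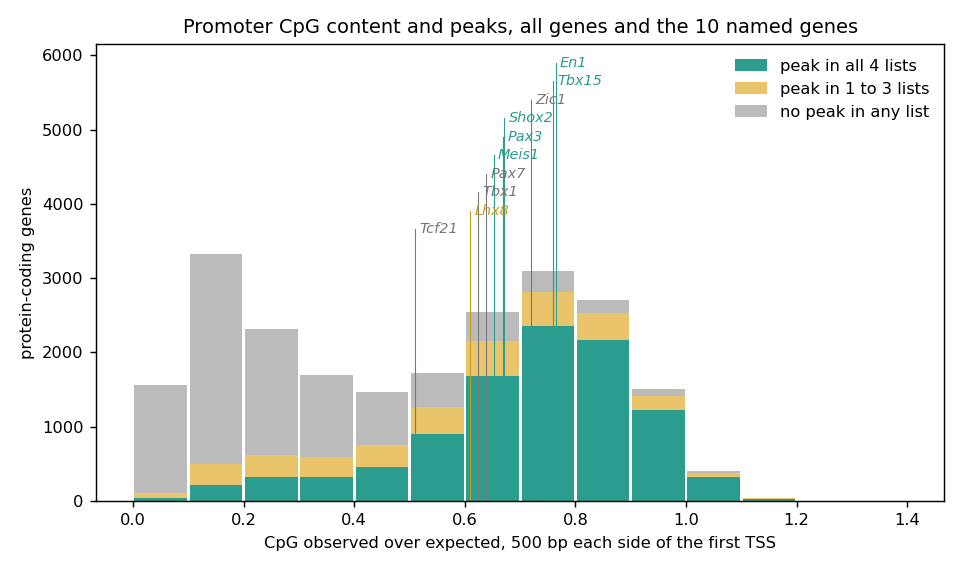
Bars count protein-coding genes by the CpG observed-over-expected ratio around the first TSS, split by whether the promoter had a peak in all 4, in 1 to 3 or in none of the lists, and vertical lines mark the 10 genes in the colour of their own class (grey names for no peak). Zic1 (0.720), Pax7 (0.638) and Tbx1 (0.623) lie in the range where most promoters were open.

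The libraries differed in depth, which limits what a missing peak means. Relative to WT D0, the depth was 0.806 in WT at D8 and 1.07 and 0.750 in HY at D0 and D8, and the lists held between 41228 and 77994 peaks. The values below are summit pileups, the number of overlapping tags at a summit, solved from the deposited fold and p-value. At the average background a peak needed a pileup of 5 (4 in HY D8) to be listed, so closed means that no peak was detectable at this depth. Markers placed the cells as labelled: all 6 adipocyte genes (Adipoq, Plin1, Fabp4, Pparg, Lipe, Cidec) had a promoter peak in both D8 lists and 2 of 6 in the D0 lists. Of 6 preadipocyte genes, 6 had one in WT D0, 4 in HY D0 and 1 in each D8 list, while of 5 thermogenic genes 1 and 3 had one at D0 and D8 in WT and 2 and 3 in HY, and Ucp1 had none. Among markers of other cells, with the lists in the order WT D0, WT D8, HY D0, HY D8, muscle genes counted 0, 1, 0 and 0 of 6 (Acta1), macrophage and blood genes 0 of 5 throughout, endothelial genes 3, 0, 2 and 1 of 5, and mesothelial genes 1, 0, 1 and 0 of 4 (Krt19). Tek and Kdr, 2 of the endothelial genes, had pileups between 19 and 23 in both D0 lists, so the endothelial peaks went down on the same day as most sites below, and their part in those results was not tested. ATAC-seq peaks cannot show a single amino acid change, so the Jmjd1a genotype itself was not checked. The cultures also differed on chromosome Y, with 1 peak in each WT list and 7 and 6 in the HY lists, so genotype and culture of origin cannot be told apart.

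Peaks around the 10 genes numbered 49 at D0 and 31 at D8 in WT, and 43 and 31 in HY. The whole lists were also shorter at D8, with 71523 and 41228 peaks in WT and 77994 and 48964 in HY. In the order WT D0, WT D8, HY D0, HY D8, which holds for all series of values below, 8, 6, 8 and 7 of the 10 genes had a peak within 50 kb, against 84.0%, 76.7%, 85.6% and 79.6% of all genes. Tbx15 and Tbx1 had the most over the 4 lists, 35 each. For Tbx15 the counts were 11, 8, 10 and 6, against a median of 5, 3, 6 and 4 over all genes. Tbx1 had 10, 9, 8 and 8, Meis1 8, 5, 7 and 7, and Pax3 8, 4, 6 and 3. Shox2, with 4, 3, 4 and 4, and En1, with 5, 2, 4 and 2, lay near the median of all genes. Pax7 had 2 and 3 peaks in the D0 lists and none at D8, a pattern found in 6.55% of genes, and Lhx8 had 1, 0, 1 and 1.

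**Figure D2:**
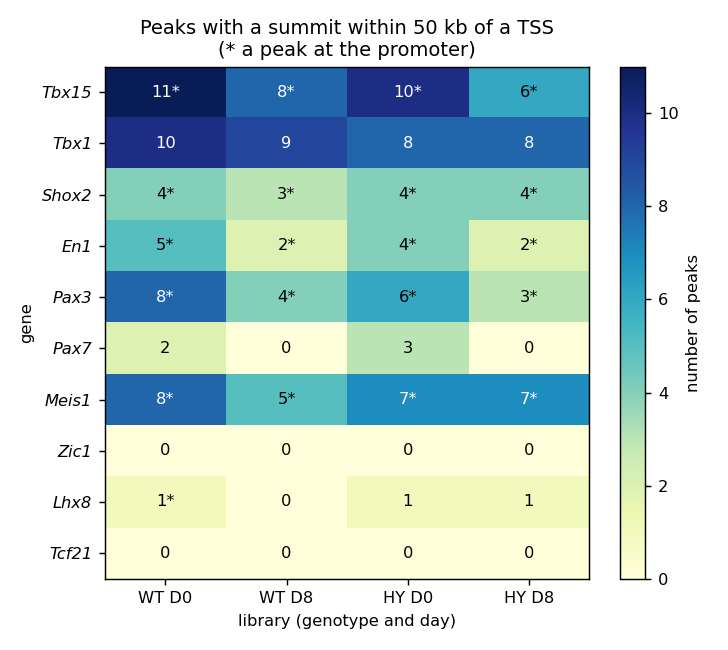
Each cell gives the number of peaks with a summit within 50 kb of a TSS of the gene (rows) in each library (columns), and a star marks a peak at the promoter. Zic1 and Tcf21 are at 0 in all 4 libraries, and Pax7 is at 0 in both D8 libraries.

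Peaks that overlapped by at least 1 bp were merged into sites, 65 around these genes of 100608 in the genome, and 46 of the 65 had one of the 10 genes as their nearest annotated TSS. Of the 65, 14 (21.5%) were open in all 4 libraries, against 24.2% of all sites, and 15 (23.1%) in both D0 libraries only, against 24.6%. With lists of equal length these counts were 9 and 3 of 42 sites. Another 6 sites (9.23%) were open in both D8 libraries only, against 5.99%, and with lists of equal length it was 8 of 42. The shares of all sites at equal length are not given here. Sites open on both days made up 24, sites open at D0 alone (in 1 or both genotypes) 27, against 50.4% of all sites, and sites open at D8 alone 14, against 13.2%. A single library held 20 of the sites, against 32.9% of all sites. WT D0 and HY D0 had 6 each (9.01% and 16.8% of all sites), and WT D8 and HY D8 had 4 each (2.21% and 4.96%). Both D0 libraries and HY D8 shared 4 sites to the exclusion of WT D8 (6.75% of all sites), and both D0 libraries and WT D8 shared 3 (1.89%). The Pax3 site at 7710 bp was the only one open in both WT libraries and in neither HY library (0.322%). In WT, 19 of 45 D0 sites were still listed at D8 (42.2%, exact interval 27.7% to 57.8%), against 40.0% of all WT D0 sites. In HY it was 18 of 42 (42.9%, 27.7% to 59.0%), against 42.9%. The shares kept were thus near those of the genome. Of the sites listed at D8, 19 of 29 in WT had been open at D0 (65.5%, against 74.3% of all), and 18 of 30 in HY (60.0%, against 73.0%).

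Tbx15, the subcutaneous T-box gene, had the strongest promoter peak at D0 and a set of intronic elements that changed with the day. The site 483 bp upstream of its TSS (chr3:99056895-99057765) had a pileup of 61 at D0 and 25 at D8 in WT, and of 63 and 24 in HY. Before scaling for depth, the genotypes were nearly level within each day, and both D8 libraries lay well under both D0 libraries. Scaled for depth, D8 was 0.509 of D0 in WT (0.306 to 0.823) and 0.546 in HY (0.326 to 0.886), where 1 would mean no change. Scaling by the sites open in all 4 libraries gave 0.660 in WT and 0.629 in HY, and takes both upper limits past 1. From the deposited fold over local background the ratios were 0.682 in WT and 0.711 in HY. In a bulk culture, fewer cells with an open site and less access per cell cannot be told apart. Among all promoter sites open on both days, 5.79% in WT and 7.77% in HY had a ratio as low. All 15 sites in the Tbx15 window were nearest to Tbx15 itself. Of them, 6 were open in both D0 libraries only, among them 3568 bp upstream of a Tbx15 TSS with a pileup of 22 in each, and 6496 bp upstream, within an intron of Wars2, with 15 in WT and 29 in HY. A further 5 were listed at D8 only, with pileups of 7 to 11, and 1 of these, 1768 bp downstream of a Tbx15 TSS, in both genotypes (7 and 8). The 2 remaining sites open in all 4 libraries behaved like the promoter: at 10101 bp downstream the pileups were 25, 11, 20 and 8, and at 619 bp downstream of the distal TSS 16, 8, 19 and 7. Their D8/D0 ratios lay between 0.528 and 0.621, each with an interval that includes 1.

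The middle of the D0-only element 3568 bp upstream of a Tbx15 TSS (chr3:99054015-99054215, plus strand, intron of Tbx15) is shown with the D8-only element of the Tbx1 locus at -6143 bp (chr16:18594156-18594356, minus strand, intron of 4930588K23Rik) and the D0-only element of Pax7 at -25257 bp (chr4:139414602-139414802, minus strand, intergenic), because they carry the day pattern away from promoters. Capitals mark matches, on either strand, to the 7 motifs described further on.
Tbx15 -3568, D0 only: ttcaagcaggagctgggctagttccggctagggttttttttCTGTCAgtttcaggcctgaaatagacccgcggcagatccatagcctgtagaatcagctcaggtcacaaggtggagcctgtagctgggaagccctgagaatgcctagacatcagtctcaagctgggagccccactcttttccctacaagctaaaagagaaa
Tbx1 -6143, D8 only: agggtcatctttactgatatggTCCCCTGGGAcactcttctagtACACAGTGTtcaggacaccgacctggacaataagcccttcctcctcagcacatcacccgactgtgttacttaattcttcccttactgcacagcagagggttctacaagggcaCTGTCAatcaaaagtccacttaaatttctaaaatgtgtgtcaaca
Pax7 -25257, D0 only: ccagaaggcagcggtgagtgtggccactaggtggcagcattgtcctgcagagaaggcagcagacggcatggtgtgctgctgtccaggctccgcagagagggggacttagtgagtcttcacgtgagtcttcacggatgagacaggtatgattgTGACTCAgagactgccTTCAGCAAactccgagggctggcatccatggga
The Tbx15 stretch holds a MEIS match, the Tbx1 stretch holds EBF (overlapping matches on both strands), glucocorticoid receptor and MEIS matches, and the Pax7 stretch holds AP-1 and C/EBP matches.

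En1, the homeodomain gene of the dorsal trunk, had a lower promoter pileup at D8 in both genotypes, past 2-fold in WT. The promoter site (chr1:122498656-122499149, summit 129 bp upstream) had 43 at D0 and 13 at D8 in WT, and 45 and 21 in HY. Both D0 values lay above both D8 values. D8 was 0.375 of D0 in WT (0.185 to 0.711), a ratio past 2-fold that 1.77% of promoter sites reached, and 0.668 in HY (0.378 to 1.15). From the deposited fold over local background the WT ratio was 0.595, which is not past 2-fold. At D8, HY was 1.74 times WT, with an interval from 0.829 to 3.77 that includes 1. The site 5511 bp upstream was listed at D0 (19 in WT, 15 in HY) and in WT D8 (8) but not in HY D8. Elements at 15694 bp upstream (12 and 9) and 408 bp downstream, in the untranslated exon (14 and 16), were open in both D0 libraries only.

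Shox2, a homeodomain gene of proximal limb mesenchyme, had promoter sites that were listed on one day only beside one that stayed open. Its site within the first exon (chr3:66784978-66785377, 34 bp downstream of a TSS) had 30 at D0 and 20 at D8 in WT, and 20 and 21 in HY. Before scaling for depth, the WT D0 pileup was the highest and the other 3 lay at 20 or 21. D8 was 0.827 of D0 in WT (0.445 to 1.51) and 1.50 in HY (0.776 to 2.92), and neither ratio left the range of counting error. Another promoter site, 447 bp upstream of a TSS (chr3:66786072-66786645), was open at D0 only, with 27 in WT and 17 in HY. The third, 32 bp upstream of an internal TSS (chr3:66782675-66782829), was open at D8 only, with 11 in WT and 14 in HY. At D0, HY was 0.621 of WT at the first exon (0.334 to 1.13) and 0.586 at the upstream site (0.300 to 1.12). Both intervals include 1, and 1.43% and 0.966% of promoter sites had an HY/WT ratio as low.

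Meis1, the Hox cofactor, had a main promoter site that differed little between days. Its main site (chr11:18918598-18919221, 58 bp upstream) had 55 at D0 and 39 at D8 in WT, and 60 and 35 in HY, with depth-scaled D8/D0 ratios of 0.880 in WT (0.569 to 1.35) and 0.835 in HY (0.534 to 1.29). Another 2 upstream sites were open in all 4 libraries. At 731 bp upstream the pileups were 29, 15, 20 and 26, and at 1473 bp upstream 36, 22, 46 and 36. At the nearer of these sites the D8/D0 ratio was 0.642 in WT (0.320 to 1.24) and 1.86 in HY (1.00 to 3.52), and at D8 HY exceeded WT 1.86-fold (0.950 to 3.78). At the farther, HY exceeded WT 1.76-fold at D8 (1.01 to 3.14). Scaling by the sites open in all 4 libraries multiplies the D8 HY/WT ratios by 0.838, which takes this lower limit under 1. An intronic site 23082 bp downstream, nearer to the TSS of Gm16140, had 34 and 41 in the D0 libraries, 10 in HY D8 and no peak in WT D8.

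Pax3, the paired-box gene of the dermomyotome, had the one shared promoter site at which the genotypes differed past 2-fold, a ratio below 0.5 that 0.296% of all promoter sites shared at D8 had. Its promoter site (chr1:78193140-78194021, 55 bp upstream) had 36 at D0 and 15 at D8 in WT, and 34 and 4 in HY. The genotypes were level at D0 and apart at D8, where HY sat at the lowest pileup its list held at the background rate. D8 was 0.517 of D0 in WT (0.263 to 0.969) and 0.168 in HY (0.0434 to 0.472). From the deposited fold over local background the HY ratio was 0.293. Scaling by the sites open in all 4 libraries gave 0.671 in WT, which takes its upper limit past 1, and 0.194 in HY. HY was 0.879 of WT at D0 (0.534 to 1.45) and 0.286 at D8 (0.0692 to 0.899). Of the 11144 promoter sites open in both D8 libraries, 0.0359% had an HY/WT ratio as low, and 0.0174% of 11492 had an HY D8/D0 ratio as low. Sites that had lost their HY D8 peak altogether are not in that comparison. Whether the D8/D0 ratios differ between genotypes was not tested, since each rests on 1 library.

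The elements around Pax3 also differed at D8. At 7208 bp downstream, in an intron, the pileups were 19 and 9 in WT at D0 and D8 and 17 in HY at D0, and HY D8 had no peak. Its neighbour at 7710 bp was listed in the WT libraries only, with 9 at D0 and 5 at D8. The strong D0 element 18757 bp upstream (29 in each D0 library) had no peak in WT D8 and 6 in HY D8, a D8/D0 ratio in HY of 0.296 (0.101 to 0.726). At -20287 bp, further upstream, a peak of 12 was listed in WT D0 and one of 5 in HY D8, with no peak in WT D8. At D8, 2 of these elements were thus listed in WT only and 2 in HY only. All HY D8 peaks around Pax3 thus lay between 4 and 6 tags.

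**Figure D3:**
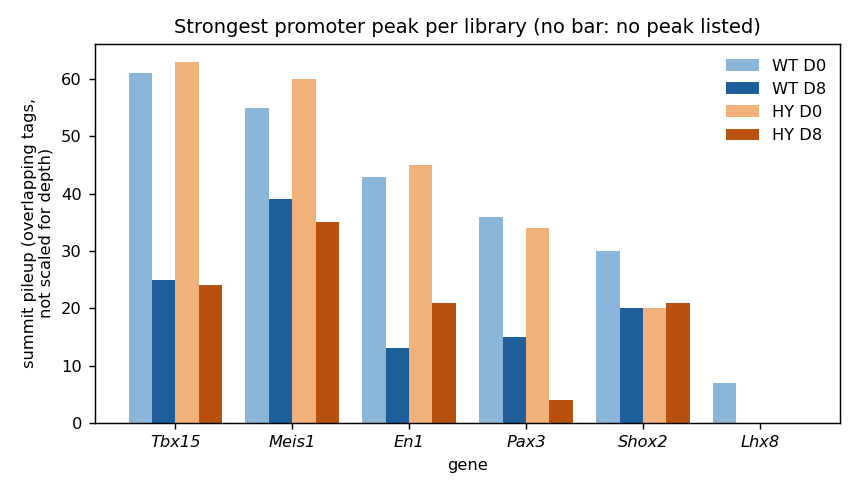
Bars give the pileup of the strongest promoter peak in tags, without depth scaling, for the 6 genes with any promoter peak, at both days in both genotypes, and a missing bar means that no peak was listed. Pax3 is at 15 in WT D8 and 4 in HY D8 against 36 and 34 at D0, while Meis1 stays between 35 and 60.

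Pax7, the sister gene of Pax3 in muscle stem cells, had a closed promoter and distant peaks at D0 alone. An intergenic element 25257 bp upstream (chr4:139414481-139414891) had 16 in WT D0 and 14 in HY D0, and another at -43886 bp, nearer to Gm1667, had 11 and 10. Another peak, 35538 bp downstream in an intron, was seen in HY D0 only, at 6. At D8 the nearest summit lay 201615 bp away in WT and 134131 bp away in HY. The skeletal muscle genes Myf5, Myf6, Myod1 and Myog had no promoter peak in any library.

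Tbx1, the beige marker, had many peaks in its window but none at its promoter, and 12 of its 14 sites were nearer to another annotated gene. For those at -3903, -6143 and -16338 bp that gene was 4930588K23Rik, and Tbx1 was the nearest protein-coding gene. The 2 sites whose nearest annotated TSS was that of Tbx1 lay downstream of it. At 12472 bp (chr16:18574395-18574747) the pileups were 9 and 7 in WT and 10 and 15 in HY, and at 6333 bp a peak of 11 was listed in HY D0 alone. Among the 21 sites listed in both D8 libraries, the first of these was the only one at which HY exceeded WT more than 2-fold, by 2.30, with an interval (0.883 to 6.67) that includes 1. In all, 3 sites in the Tbx1 window were open in both D8 libraries only: at -16338 bp with 15 and 20, at -6143 bp with 9 and 11, both within the 4930588K23Rik locus, and at 49168 bp downstream within Gnb1l with 16 and 17. The opposite day pattern was seen at another Gnb1l intron site, 31538 bp downstream, with 34 and 8 in WT, 49 in HY at D0 and no peak in HY D8.

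Lhx8, a marker of brown fat, was close to closed. Its only promoter peak, 142 bp downstream of the nearest TSS in an untranslated exon (chr3:153993391-153993499), had a pileup of 7 in WT D0 and was absent from the other 3 lists. It was counted at the promoter because it also lay within 1000 bp upstream of another Lhx8 TSS. Single peaks 34252 bp downstream in HY D0 (7, nearer to Slc44a5) and 27353 bp downstream in HY D8 (5) made up the rest. None of the 3 was found in more than 1 library.

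Zic1, the other brown marker, lay in the emptiest region. Its nearest summit was 884442 bp away at D0 and 884849 bp at D8 in WT, and 622688 and 884439 bp away in HY. Only 1.61% of protein-coding genes (360) had their nearest peak of any list as far away. Tcf21, the visceral marker, had its nearest summits at 55192 and 67613 bp at D0 and at 88691 and 88638 bp at D8, in WT and HY, so it was closed at 50 kb in all 4 libraries with some peaks just beyond. Of the depot and lineage genes, therefore, no site near a brown or visceral marker was shared by any pair of libraries, whereas the genes with an open start in all libraries were the subcutaneous markers Tbx15 and Shox2 with En1, Pax3 and Meis1. The beige marker Tbx1 and Pax7 also had no promoter peak in any list, so a closed start was not confined to brown and visceral markers.

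**Figure D4:**
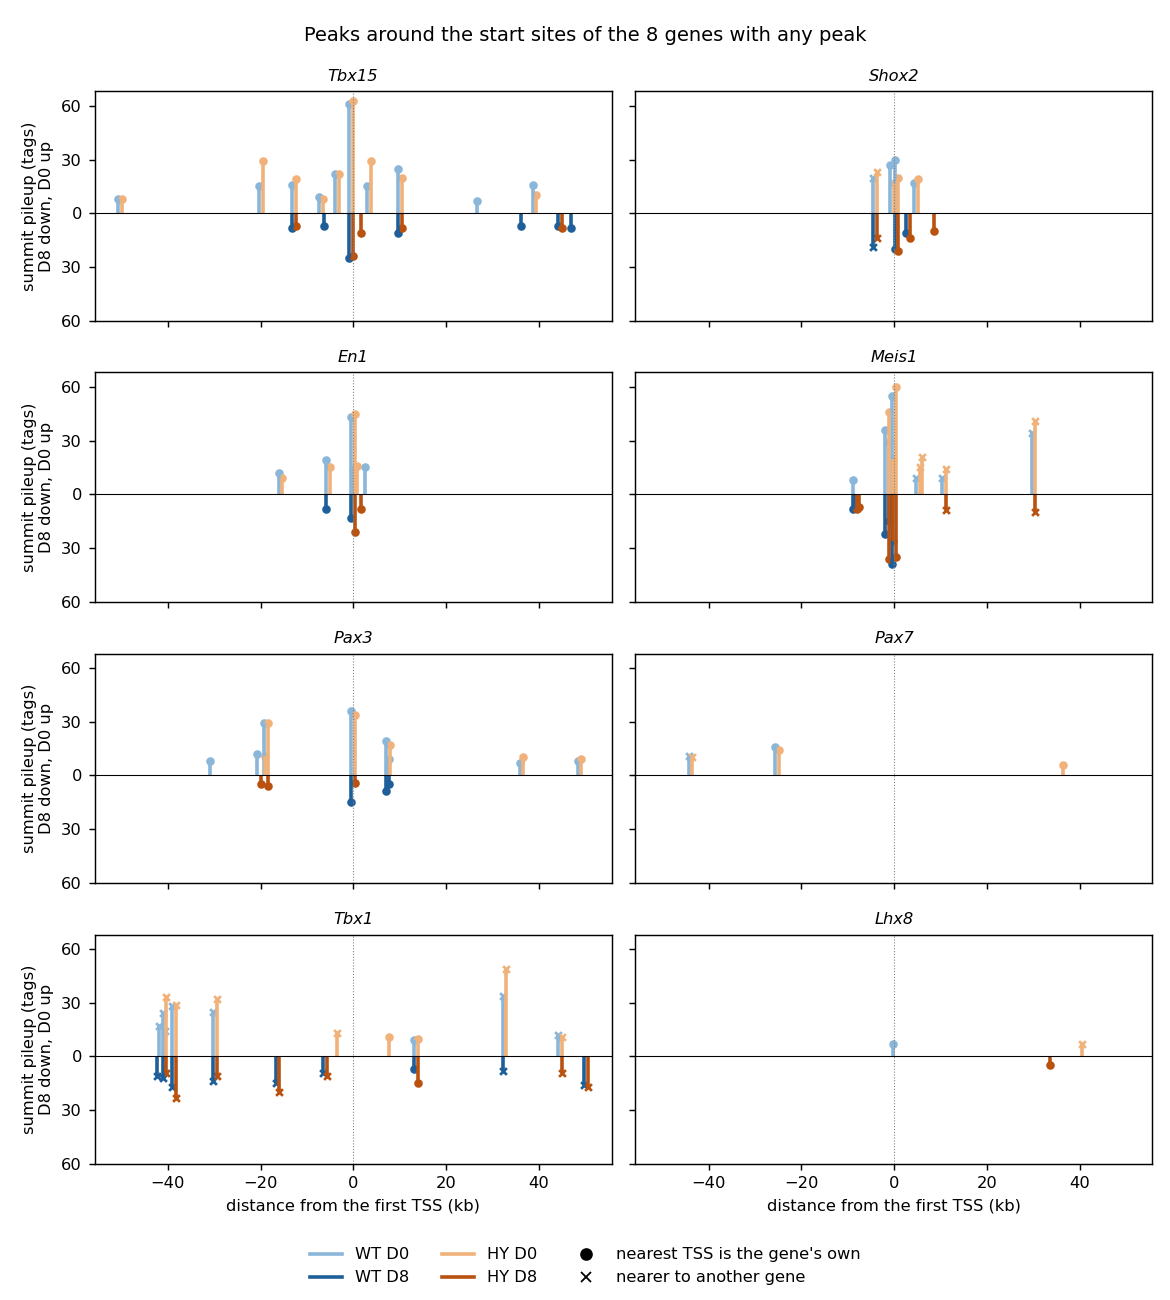
Each line is a site, placed by its distance from the first TSS of the gene in kb (positive downstream), with summit pileup in tags drawn upward for D0 and downward for D8, WT and HY side by side. The first TSS is that of the protein-coding transcripts, for Tbx15 chr3:99057683, and the distal Tbx15 TSS lies upstream of it. Circles are sites whose nearest TSS belongs to the gene and crosses are nearer to another gene, which holds for 12 of the 14 Tbx1 sites, and Pax7 has lines only upward.

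Across the sites within 50 kb of these genes open on both days, some of them nearer to another gene, the median D8/D0 ratio lay below 1. In WT, 19 sites were open on both days, with a median depth-scaled D8/D0 ratio of 0.642, against 0.896 over 27347 sites of the genome. Of the 19, 17 lay under 1, against 61.1% of all sites, 2 lay under 0.5, against 14.7%, and none over 2, against 4.78%. In HY, 18 sites had a median of 0.752, against 0.884 over 32949 sites, with 12 under 1 against 60.4%, 5 under 0.5 against 17.2%, and 1 over 2 against 5.27%. Some of these sites lay at a protein-coding promoter, which could be that of a neighbouring gene. Their medians were 0.642 over 7 sites in WT, against 0.968, and 0.853 over 8 sites in HY, against 1.00. For the promoter sites nearest to one of the 10 genes, 6 in each genotype, the medians were 0.580 in WT and 0.752 in HY. Over all sites nearest to one of the 10 genes, the medians were 0.631 (14 sites) in WT and 0.668 (11 sites) in HY. The pileups summed over the 19 sites in WT, 275 at D8 and 526 at D0, gave a ratio of 0.649 (0.559 to 0.752). Those over the 18 sites in HY, 288 and 549, gave 0.751 (0.649 to 0.868). Scaling by the sites open in all 4 libraries in place of the background moved the median of all sites to 1.16 in WT and 1.02 in HY, so the ratios are read against those of the genome, and the place of a site among them does not depend on the scaling.

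**Figure D5:**
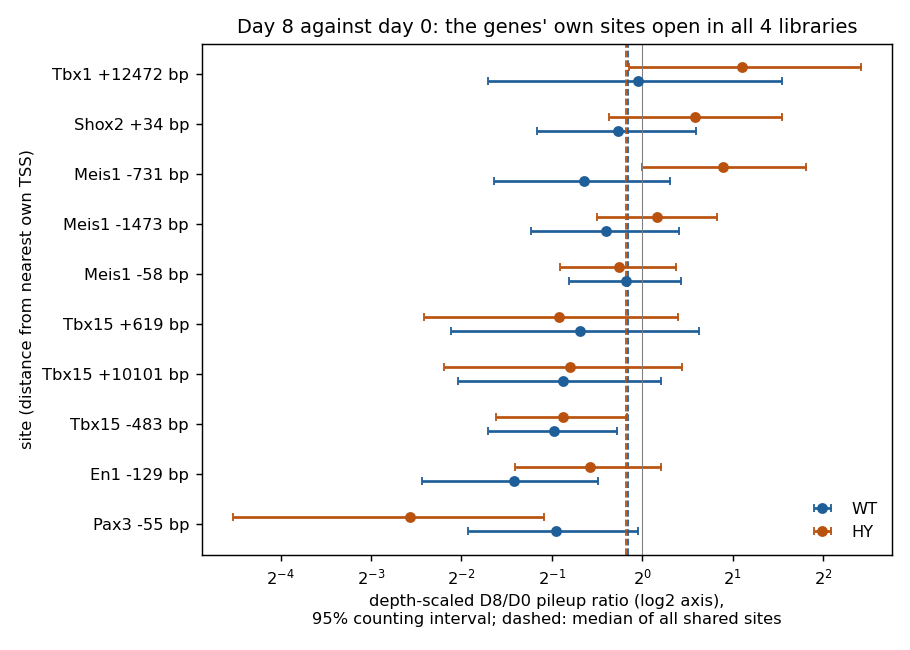
Points are depth-scaled D8/D0 pileup ratios on a log2 axis with 95% counting intervals for the 10 sites open in all 4 libraries whose nearest TSS belongs to one of the genes, WT in blue and HY in orange, and dashed lines are the medians of all shared sites (0.896 and 0.884). Pax3, En1 and the 3 Tbx15 sites lie lowest, and the Pax3 interval in HY (0.0434 to 0.472) is the lowest of all.

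The HY/WT medians lay nearer to 1 than the D8/D0 medians. At D0, 36 shared sites had a median HY/WT ratio of 0.969, against 1.06 over 57846 sites, with none below 0.5 (1.41% of all sites) and none above 2 (2.23%). At D8, 21 shared sites had a median of 1.13, against 1.11 over 32039, with the Pax3 promoter below 0.5 (0.512%) and the Tbx1 site above 2 (1.68%). In the lists themselves, 36 of 45 WT D0 sites were open in HY D0 (80.0%, against 84.6% of all) and 36 of 42 HY D0 sites in WT D0 (85.7%, against 75.3%). At D8 it was 21 of 29 WT sites (72.4%, exact interval 52.8% to 87.3%, against 87.1%) and 21 of 30 HY sites (70.0%, against 71.0%).

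A list of 36 related patterning genes (other T-box, Pax, Zic, Lhx, Meis and limb or trunk factors) was likewise divided into open and closed promoters. A promoter peak was present for 20, 19, 19 and 17 of them in the 4 lists, against 53.4%, 49.5%, 54.3% and 50.4% of all genes, and 13 were open in all 4 libraries, against 44.8% of all genes. The T-box repressor Tbx3 had 78, 55, 81 and 59, and Irx5, a homeodomain factor, 54, 39, 63 and 46. Another 12 had no promoter peak in any list, against 41.4% of all genes, among them Zic2, Zic4 and Zic5 of the Zic family, the limb genes Tbx4 and Tbx5, En2, the sister gene of En1, and Wt1, a marker of visceral fat and mesothelium. The median D8/D0 ratio at their promoters was 0.896 over 15 genes in WT and 0.945 over 16 in HY. None lay under 0.5 in WT and 5 in HY (Pax9, Meis3, Lhx2, Lhx6 and Prrx1, from 0.314 to 0.477), against 5.36% and 5.90% of promoter sites. The sets differ, since a ratio needs a peak on both days. Meis3 and Prrx1, with 35 and 25 in WT D0, had no promoter peak in WT D8 and so no WT ratio. In WT, Pax9 lay at 0.508, Lhx2 at 0.793 and Lhx6 at 0.993. Irx3 had promoter peaks in the WT libraries only (49 and 38), and Gata6 had 57, 34 and 52 but no peak in HY D8.

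Motifs were searched within 100 bp of each summit on both strands: AP-1 (TGANTCA), EBF (CCCNNGGGA), C/EBP (TTGCNNAA), T-box (GGTGTGA), MEIS (TGACAG), TEAD (GGAATGT) and glucocorticoid receptor (ACANNNTGT). The letters of different motifs may overlap, and a match is not a bound site. AP-1 was found at 8 of the 65 sites (12.3%), against 22.0% of all sites, C/EBP at 8 (12.3%, against 11.4%), MEIS at 7 (10.8%, against 14.4%), glucocorticoid receptor at 4 (6.15%, against 6.29%), EBF at 3 (4.62%, against 6.01%), and T-box and TEAD at 1 each (1.54%, against 2.76% and 6.30%). Of the 27 sites open at D0 only, 5 held AP-1 and 3 C/EBP, and of the 14 open at D8 only, none held AP-1 and 3 held C/EBP. Over the genome AP-1 was in 28.5% of D0-only and 7.29% of D8-only sites, and C/EBP in 9.11% and 23.8%. The single T-box match lay at a HY D0 peak 19411 bp upstream of Pax3, and the AP-1 matches included the En1 promoter, the Tbx15 site at 10101 bp, the Tbx1 site at 12472 bp and the Pax7 element at -25257 bp.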

How the data were processed

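ATAC-seq peaks of im-scWAT cells were analysed in 4 libraries (WT and HY at D0 and D8), 1 per group, with groups taken from the labels. The study's methods name Trimmomatic, Bowtie2, SAMtools, Picard and MACS3, and the labels name mm9; versions, the calling threshold and any shift of read ends for Tn5 are not given in the sources used here. The authors called peaks in each library alone and deposited, for each peak, the fold (a ratio of summit pileup to local background), -log10 p and -log10 q, the summit offset and a score that was not used. The whole-number pileup and the background were solved from the deposited fold and -log10 p (tolerance 0.002, met by 100% of peaks). The lowest background gave the relative depth, and absolute depth is unknown. Pileups were divided by it for ratios, with exact conditional binomial 95% intervals. Tags of PCR origin are not independent molecules.

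TSSs came from the GENCODE annotation of NCBIM37 (mm9), and coordinates are 1-based on this build. Emr1 and Sfpi1 were used for Adgre1 and Spi1. The solving, merging and interval steps were tested on simulated data. With 1 library per group no test was run, and past 2-fold was the size called. The genes, lists and motifs were chosen with earlier results of these data known. Named were the 10 genes, each with its site at the TSS and its strongest own site, the 10 own sites open in all 4 libraries, the related and marker lists, and neighbouring genes nearest to a described peak. Other sites and genes of the lists were named after their values were seen. Some genes of the lists are not reported here. Alternatives changed the window, TSS set, peak threshold, list length, merging and scaling. Python 3.11.15, NumPy 2.4.6, SciPy 1.17.1, pandas 2.3.3 and matplotlib 3.10.9 were used.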

Additional observations from a re-analysis of the deposited data

Results flagged for a closer look

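At 6 of the 14 sites open in all 4 libraries the depth-scaled D8/D0 ratio lay on opposite sides of 1 in WT and HY, against 22.9% of all sites open in all 4 libraries. With 1 library per group, the difference between the genotypes was not tested at any of them. Of the sites, 2 lie in the Tbx1 window: 12472 bp downstream the ratio was 0.965 in WT and 2.15 in HY, and at -38639 bp, within Sept5, it was 0.754 and 1.14. The Shox2 exon site at 34 bp had 0.827 and 1.50. The site at -4122 bp from Shox2, which is 74 bp from the TSS of Rsrc1, had 1.18 and 0.872 and was the only one of the 6 with the higher ratio in WT. Upstream of Meis1, the site at 731 bp had 0.642 and 1.86, and the site at 1473 bp had 0.759 and 1.12. In the WT libraries, every counting interval of the 6 included 1. In HY, the interval at the Meis1 site at 731 bp began at 1.00 (1.00 to 3.52), and all others included 1. The count depends on how depth was scaled: with pileups divided by the median pileup of the sites open in all 4 libraries, 4 of the 14 sites had opposite directions, against 20.1% of all such sites, and 3 of them were among the 6 above. The ratios at the Shox2 exon site then became 1.07 and 1.73, both above 1, and those at the Meis1 site 58 bp upstream became 1.14 and 0.963.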

How the results depend on the processing

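No paired analysis was possible because there was 1 library per group and the labels carry no replicate numbers. Of 45 alternatives to the summary values, 32 left them within the allowed range, and Zic1 had no peak within 50 kb under any of them. Shortening every list to the 41228 strongest peaks lowered the peaks around the 10 genes from 154 to 101, the promoters open in all 4 libraries from 5 to 3 (Tbx15, En1 and Meis1), the sites open in all 4 from 14 to 9 and the sites of both D0 libraries only from 15 to 3. It also raised the sites of both D8 libraries only from 6 to 8 and left Lhx8 without any peak. A window of 100 kb left 1 gene with no peak (Zic1) in place of 2. Requiring peaks to cover 50% of a site left 3 sites open in all 4, and requiring a -log10 q of at least 5 left 9, with 2 sites of both D8 libraries only in place of 6. The summed D8/D0 ratio in WT was 0.842 when scaled by sites open in all 4 libraries, 0.523 unscaled and 0.780 from the deposited fold, and in HY 0.525 unscaled. The summed HY/WT ratio at D8 turned from 1.17 to 0.984 under the scaling by shared sites. Of 72 alternative values for single promoter sites, 12 lay on the other side of 1 than the value reported, all at sites whose reported interval includes 1. Depth limits all statements on closed sites, since a peak under 4 or 5 tags could not be listed.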
